A study of Arabidopsis thaliana with 33 samples.

Results

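The WRKY proteins are plant transcription factors that share a conserved DNA-binding domain and bind the W-box, a short element found in the promoters of many defence, stress and senescence genes. Many WRKY genes carry W-boxes themselves and are switched on within minutes to hours of pathogen contact, in part through mitogen-activated protein kinase cascades. In leaves they are best known for tuning immunity, for the onset of senescence and for responses to heat, wounding and phosphate supply. The 44 genes described here were taken by locus name from a list of family members, a list drawn up with earlier results of these data known, out of 23044 genes listed in at least 1 of the authors' deposited tables. RefSeq (assembly TAIR10.1) names 72 WRKY genes, and the other 28 were used for comparison.

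The study compared Arabidopsis thaliana shoots, staged at 4 to 5 leaves and grown on soil in long days, of wild type (WT), arp6-1, brm-1 and the double mutant of both alleles, arp6-1;brm-1. ARP6 belongs to SWR1, a complex that deposits the histone variant H2A.Z, and BRM (BRAHMA) is the motor subunit of SWI/SNF remodellers. No other allele, transgene or treatment is named in the labels, and arp6 and brm are each represented by 1 allele. RNA was isolated from nuclei, so levels reflect nuclear transcripts, in 3 libraries for each of the 4 groups, 12 in all. The authors deposited 1 table per mutant against WT, made with edgeR, and no value per library, so the spread between libraries is seen only through the p-values. All 3 comparisons used the same WT group. The digit after AT in a locus name gives the chromosome.

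The labels were checked first. ARP6 transcript was low in both lines with the arp6 mutation, with a log2 fold change (log2FC) of -5.73 in arp6 and -5.60 in the double mutant per the authors' deposited tables. BRM transcript was low in both lines with the brm mutation, with log2FC values of -5.64 in brm and -8.87 in the double mutant per the authors' deposited tables. The 4 leaf markers RBCS1A, CAB1, CAB2 and RCA had an average log2 CPM (read counts scaled to library size) between 8.61 and 12.3 per the authors' deposited tables. None of the 3 root hair markers (RHD6, EXPA7 and COBL9) was listed, and the flower markers AP3, PI and AG lay at an average log2 CPM between -4.08 and -3.14 per the authors' deposited tables. The seed storage genes CRA1 and CRU3 were listed only near the floor of detection, both in the double mutant and CRU3 also in brm, and none of the flower and seed markers was called. In brm, RBCS1A and RCA fell, with log2FC values of -0.61 and -0.86 per the authors' deposited table. CAB2 and CAB1 had -0.63 and 0.23 there and were not called, at adjusted p-values of 0.0632 and 0.519 from edgeR. The part of leaf composition in the WRKY results was not tested. A change in bulk tissue can reflect fewer cells of a type or less RNA per cell, and these cannot be told apart.

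In each single mutant, those of the 44 WRKY genes called as changed were higher, and in the double mutant most of those called were lower. A gene was called when the authors' edgeR adjusted p (Benjamini-Hochberg) was under 0.05. In arp6, 5 of the 44 listed WRKY genes were called, all higher, where 6.03% of all 22046 genes were called, 3.01% higher and 3.02% lower. In brm, 13 of 44 were called, all higher, against 13.8% of all genes called, 7.62% higher and 6.14% lower. In the double mutant, 9 of the 43 listed were called, 2 higher and 7 lower, against 13.3% of all genes called, 6.16% higher and 7.14% lower. No WRKY gene was called lower by edgeR in arp6 or brm, and at an unadjusted p under 0.05 there were 6 lower in arp6 and 1 lower in brm. The members' share called was thus 11.4% in arp6, 29.5% in brm and 20.9% in the double mutant.

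Over all listed members, positive and negative values were near even in arp6, mostly positive in brm and mostly negative in the double mutant. The median log2FC over listed WRKY genes was 0.16 in arp6, 0.67 in brm and -0.34 in the double mutant per the authors' deposited tables. Over all genes it was -0.018, -0.018 and 0.00466. Positive log2FC values were found for 23 of 44 WRKY genes in arp6, for 32 of 44 in brm and for 16 of 43 in the double mutant per the authors' deposited tables. The quartiles of the members were at -0.26 and 0.54 in arp6, -0.05 and 1.47 in brm and -0.96 and 0.10 in the double mutant per the authors' deposited tables.

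**Figure D1:**
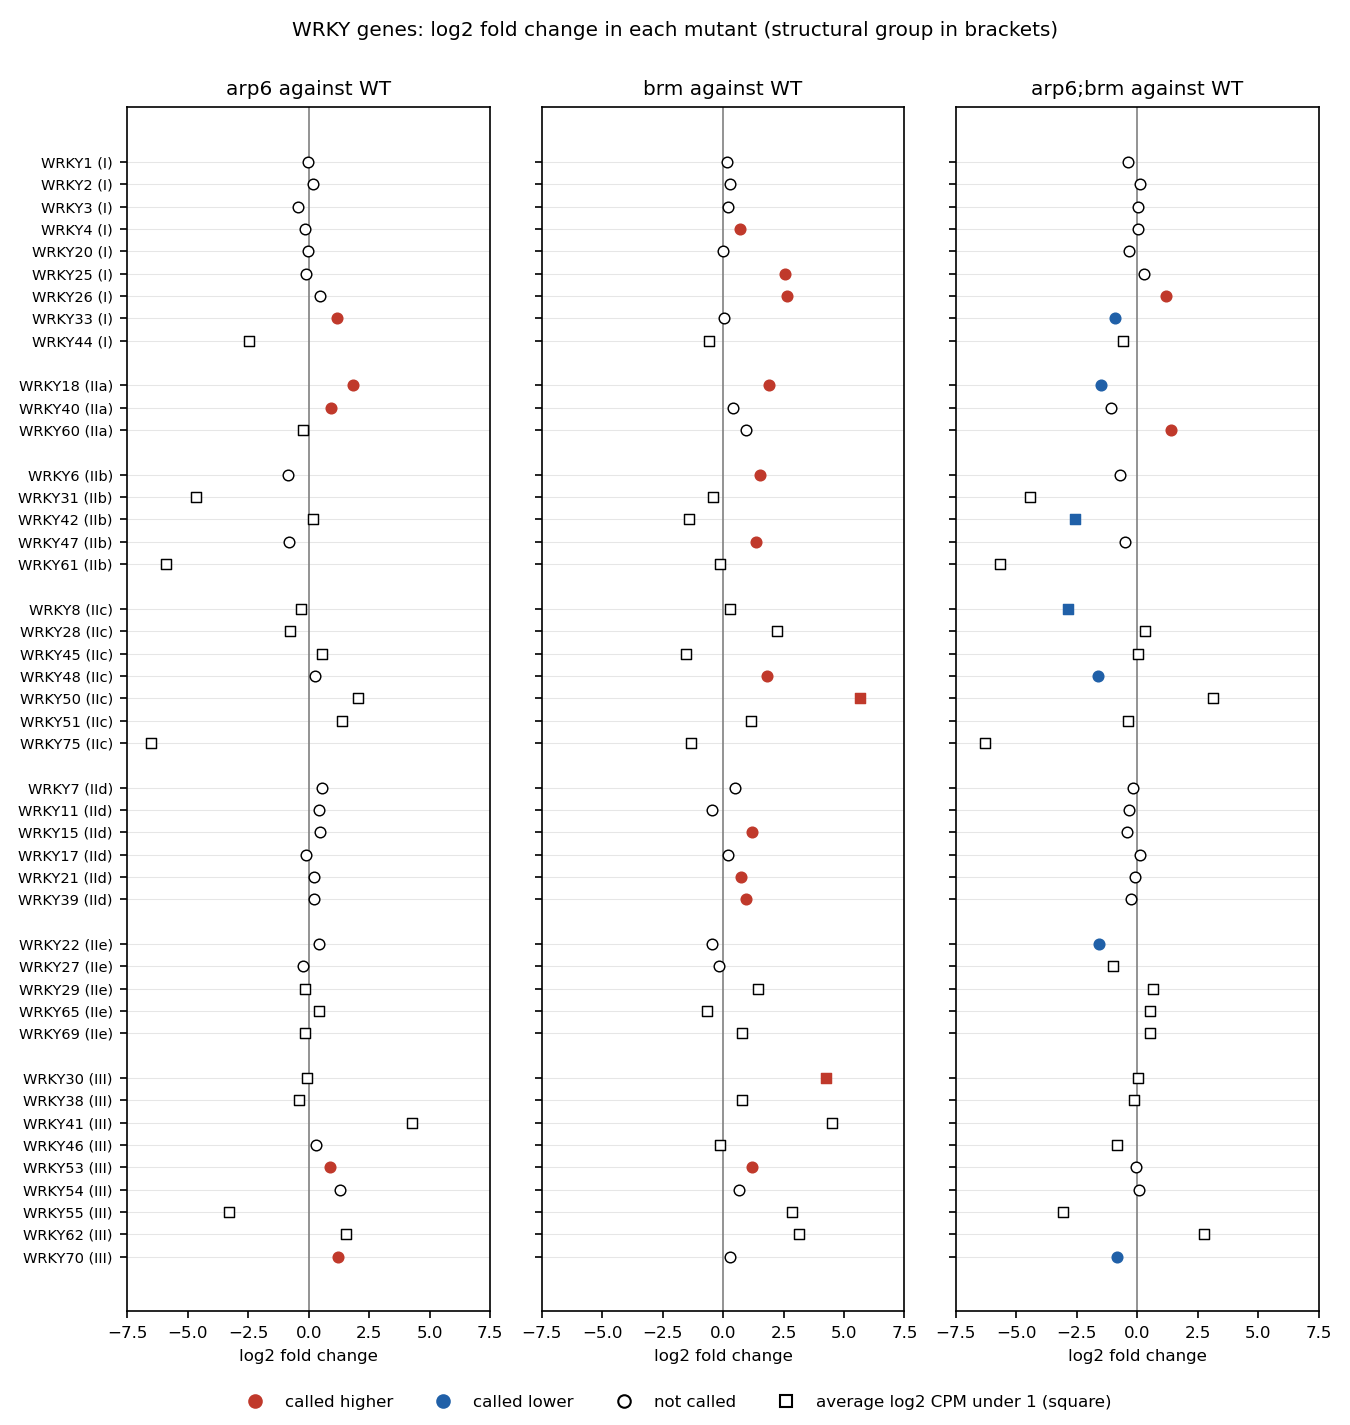
Log2 fold change (x axis) of the 44 WRKY genes in arp6, brm and the double mutant against WT, 1 point per gene, with genes ordered by structural group. Filled red points were called higher and filled blue points called lower at an adjusted p under 0.05, open points were not called, and squares have an average log2 CPM under 1. All 13 called genes in brm lie to the right of 0, and 7 of the 9 called genes in the double mutant lie to the left.

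Whether a gene can be called depends on its level, so members were read against genes of similar level. Weighted to the members' levels over 4 bands of average log2 CPM, 5.79% of genes were called in arp6, 13.1% in brm and 12.6% in the double mutant. Over genes with an average log2 CPM of 1 or more, 5 of 25 WRKY genes were called in arp6, all higher, against 7.71% of all genes, 3.99% higher and 3.71% lower. In brm 11 of 25 were called at that level, all higher, against 19.5% of all genes, 10.9% higher and 8.62% lower. In the double mutant 2 of 24 were called higher and 5 lower, against 17.3% of all genes, 7.83% higher and 9.5% lower. In arp6, the called WRKY genes were all well expressed. At an average log2 CPM of 5 or above, 3 of 4 WRKY genes were called, against 9.6% of all genes, and between 3 and 5 there were 2 of 10, against 7.84%. Of the 30 WRKY genes below 3, 0 were called by edgeR in arp6, with 5 of these 30 at an unadjusted p under 0.05, against 3.19% of all genes called below 1 and 7.04% between 1 and 3. In brm, 7 of 14 WRKY genes between 3 and 5 were called, against 22.5% of all genes, 3 of 9 between 1 and 3, against 13.3%, 1 of 2 at 5 or above, against 34.4%, and 2 of 19 below 1, against 3.93%. In the double mutant, 2 of 10 between 3 and 5 were called, close to the 18.8% of all genes, 4 of 13 between 1 and 3, against 15.1%, 2 of 19 below 1, against 7.08%, and 1 of 1 at 5 or above, against 22.1%. With 1 to 19 members per band, these shares are coarse.

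**Figure D2:**
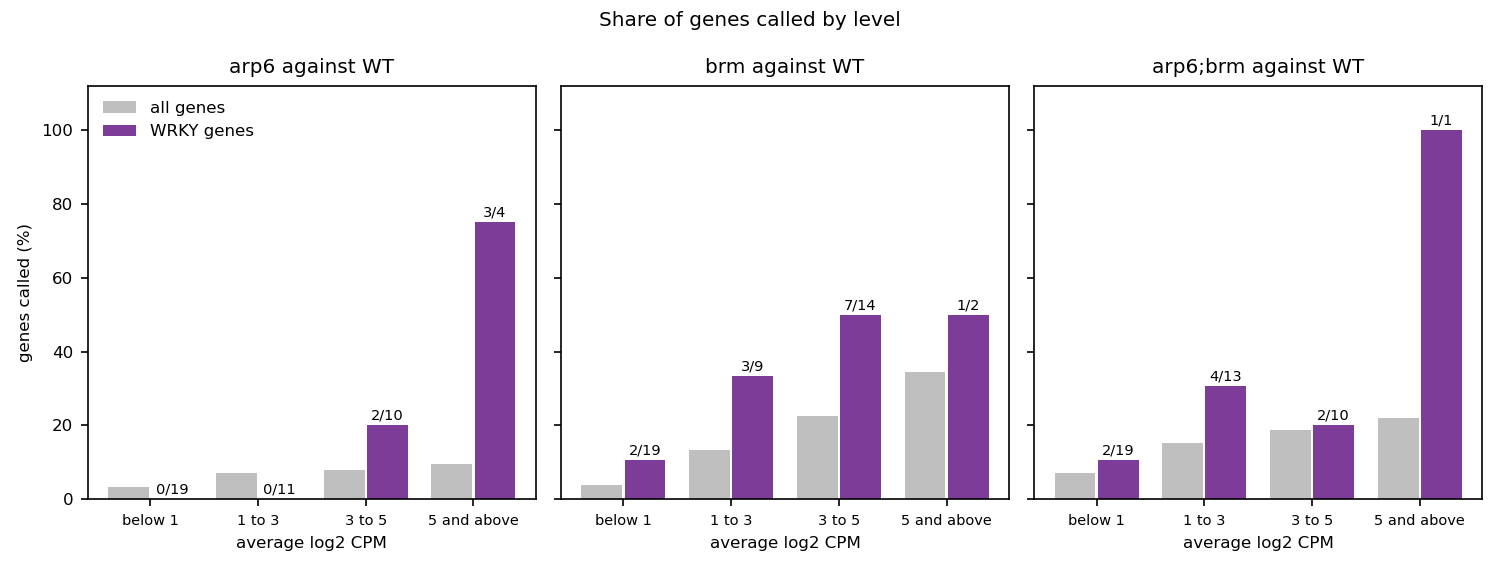
Share of genes called (y axis, percent, adjusted p under 0.05) in 4 bands of average log2 CPM (x axis) for all genes (grey) and for WRKY genes (purple), with the number of WRKY genes called and listed above each bar. In arp6 the called WRKY genes lie in the top 2 bands, and in brm the WRKY share exceeds that of all genes in each band.

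The tables hold no value per library, but the mean level of each group can be estimated from the fold change and the average CPM of a gene. CPM here is relative to all counted reads, including those that fell in no gene. The WT level of a gene estimated from the 3 tables differed by a nearly constant factor, with a median ratio of highest to lowest of 1.11 over 13098 genes at an average log2 CPM of at least 1 in all 3 tables. For the 23 WRKY genes at that level the ratio was at most 1.12. Estimated levels carry no error of their own and are compared only within a gene.

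WRKY18, WRKY40 and WRKY60 form structural group IIa. Their proteins bind each other, and WRKY18 and WRKY40 act together as negative regulators of basal immunity to powdery mildew. WRKY18 (AT4G31800) was the one WRKY gene called in all 3 comparisons. From the authors' deposited tables its mean level was estimated at 18.3 CPM in WT and 65.2 in arp6, at 16.98 in WT and 63.7 in brm, and at 16.5 in WT and 5.80 in the double mutant. It was thus high in each single mutant and below WT in the double mutant. The log2FC values were 1.83, 1.91 and -1.51 per the authors' deposited tables, at adjusted p-values of 5.29e-10, 9.72e-10 and 5.41e-05. Among genes within 0.5 of its average log2 CPM, its log2FC stood at percentile 99.8 in arp6, 98 in brm and 1.3 in the double mutant.

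WRKY40 (AT1G80840) had the same signs with smaller changes. It was estimated at 16.9 CPM in WT and 31.5 in arp6, at 15.7 in WT and 21.1 in brm, and at 15.3 in WT and 7.10 in the double mutant from the authors' deposited tables. Only the rise in arp6 was called, with a log2FC of 0.90 and an adjusted p of 0.00103 per the authors' deposited table. Its log2FC in the double mutant was -1.11, with an adjusted p of 0.0524 per the authors' deposited table. WRKY60 (AT2G25000), which is expressed at lower level and is a target of WRKY18 and WRKY40, rose in the double mutant, with a log2FC of 1.38 and an adjusted p of 0.0265 per the authors' deposited table. Its log2FC values in arp6 and brm were -0.22 and 0.94 per the authors' deposited tables, neither called. WRKY60 and WRKY18 were therefore called in opposite directions in the double mutant.

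**Figure D3:**
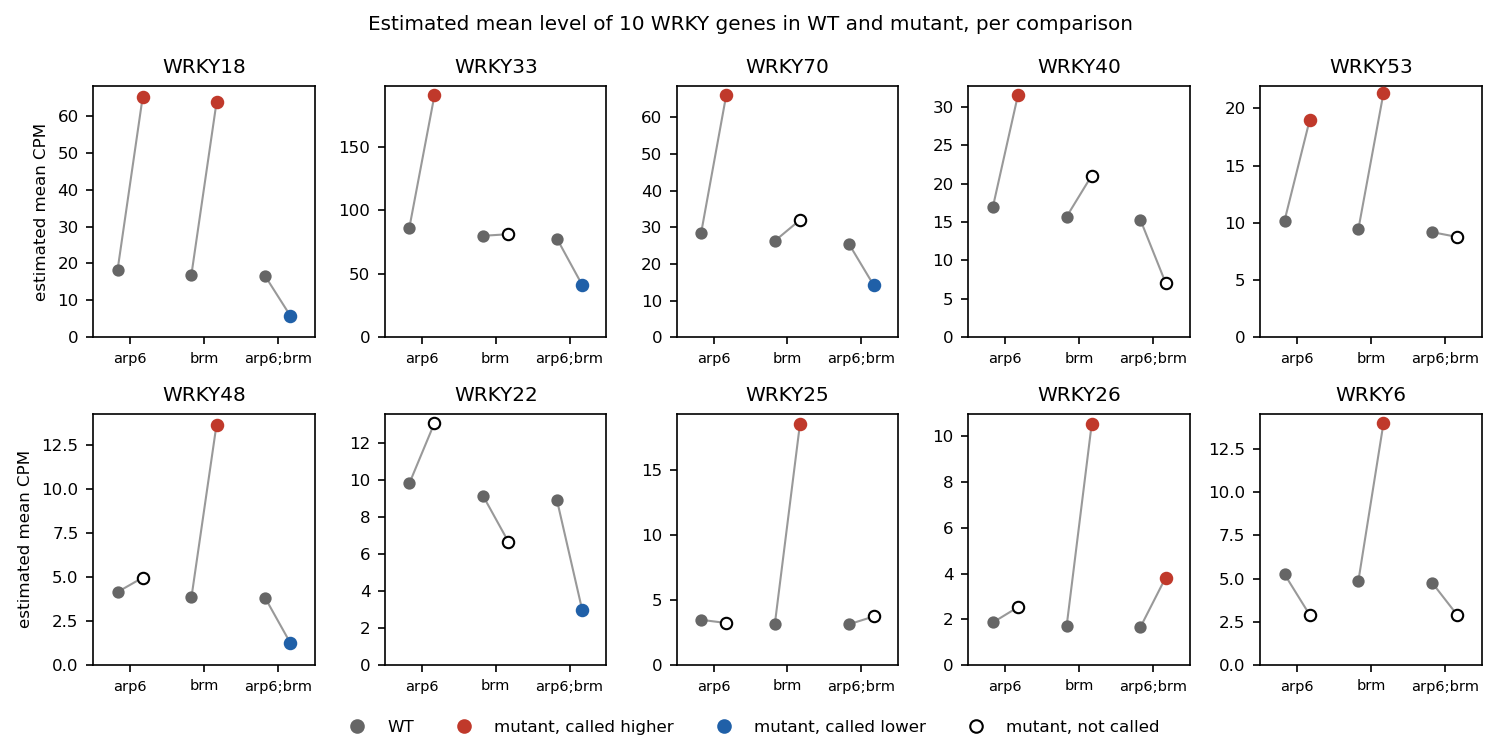
Estimated mean level (y axis, CPM) of 10 WRKY genes in WT (grey) and mutant (coloured by call) for each comparison (x axis), computed from the deposited fold change and average CPM, with no error available. WRKY18 is above WT in arp6 and brm and below it in the double mutant, WRKY33 and WRKY70 rise in arp6 and fall in the double mutant, and WRKY25 and WRKY6 are called in brm and not in the other comparisons.

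Group I proteins carry a pair of WRKY domains. WRKY33 (AT2G38470), a phosphorylation target of MPK3 and MPK6, drives synthesis of the antimicrobial compound camalexin and resistance to necrotrophic fungi. Its mean level was estimated at 86.1 CPM in WT and 190.4 in arp6, at 79.9 in WT and 81.1 in brm, and at 77.5 in WT and 41.3 in the double mutant from the authors' deposited tables. It rose in arp6, with a log2FC of 1.15 and an adjusted p of 8.03e-08 per the authors' deposited table. It fell in the double mutant, with a log2FC of -0.91 and an adjusted p of 0.0189 per the authors' deposited table. In brm its log2FC was 0.02, with an adjusted p of 0.99 per the authors' deposited table.

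WRKY25 (AT2G30250) and WRKY26 (AT5G07100), which act with WRKY33 in heat tolerance, showed another pattern. WRKY25 was estimated at 3.18 CPM in WT and 18.5 in brm, and at 3.12 in WT and 3.73 in the double mutant from the authors' deposited tables. The log2FC of WRKY25 was 2.54 in brm, with an adjusted p of 7.32e-07, and -0.11 in arp6 and 0.26 in the double mutant per the authors' deposited tables, where it was not called. WRKY26 rose in both brm and the double mutant, the one gene of the 44 to do so. From the authors' deposited tables it was estimated at 1.70 CPM in WT and 10.6 in brm, and at 1.66 in WT and 3.82 in the double mutant. Its log2FC values were 2.64 and 1.20 per the authors' deposited tables, at adjusted p-values of 3.99e-10 and 0.0372. WRKY4 (AT1G13960), which with WRKY3 contributes to resistance against necrotrophs, rose in brm by 0.69 on the log2 scale per the authors' deposited table, with an adjusted p of 0.0169.

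The other group I genes were not called in any comparison. WRKY1 (listed by RefSeq as ZAP1), WRKY2, WRKY3 and WRKY20 had log2FC values between -0.43 and 0.27 per the authors' deposited tables, at an average log2 CPM between 2.16 and 4.76. WRKY44 (AT2G37260, also named TTG2), which acts in trichome and seed coat development, had log2FC values of -2.49 in arp6, -0.59 in brm and -0.59 in the double mutant per the authors' deposited tables. Its unadjusted p in arp6 was 0.0141 and its adjusted p 0.145 per the authors' deposited table.

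Group III holds several genes of salicylic acid signalling and senescence. WRKY70 (AT3G56400), which acts downstream of the salicylic acid receptor NPR1 and restrains senescence with WRKY54, was called in the same comparisons and directions as WRKY33. It was estimated at 28.4 CPM in WT and 66.0 in arp6, at 26.3 in WT and 32.0 in brm, and at 25.6 in WT and 14.1 in the double mutant from the authors' deposited tables. Its log2FC values were 1.22 in arp6 and -0.86 in the double mutant per the authors' deposited tables, at adjusted p-values of 0.000577 and 0.0143. In brm its log2FC was 0.28 and not called per the authors' deposited table. WRKY53 (AT4G23810), a promoter of leaf senescence, rose in both single mutants, with log2FC values of 0.90 in arp6 and 1.18 in brm and adjusted p-values of 0.031 and 0.00257 per the authors' deposited tables. Its log2FC in the double mutant was -0.07, with an adjusted p of 0.96 per the authors' deposited table, and its estimated level was 9.18 CPM in WT and 8.76 in the mutant.

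WRKY54 (AT2G40750) had a log2FC of 1.29 in arp6, near the 1.22 of WRKY70, but its unadjusted p was 0.0337 and its adjusted p 0.246 per the authors' deposited table. It had 0.66 in brm and 0.09 in the double mutant per the authors' deposited tables. WRKY46 (AT2G46400), which acts with WRKY54 and WRKY70 in growth under brassinosteroids, was not called, with log2FC values of 0.28, -0.15 and -0.84 in arp6, brm and the double mutant per the authors' deposited tables. WRKY30 (AT5G24110), a gene of early responses to oxidative stress, rose in brm from an estimated 0.158 to 3.04 CPM. Its log2FC there was 4.26 per the authors' deposited table, with an adjusted p of 1.63e-08. In arp6 and the double mutant WRKY30 had log2FC values of -0.06 and 0.04 at an average log2 CPM near the floor, -2.25 and -2.30 per the authors' deposited tables. Near that floor, a fold change depends on the prior count used by the authors.

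The remaining group III genes were listed at low level and none was called. WRKY62 and WRKY38 are induced by salicylic acid and repress defence. WRKY62 had log2FC values of 1.56, 3.15 and 2.75 in arp6, brm and the double mutant per the authors' deposited tables, with unadjusted p-values of 0.375, 0.0573 and 0.0346. WRKY38 had -0.42, 0.76 and -0.15 per the authors' deposited tables. WRKY41 had log2FC values of 4.26 and 4.52 in arp6 and brm at an average log2 CPM of -3.68 and -3.65 per the authors' deposited tables, at adjusted p-values of 0.656 and 0.455, and was not listed for the double mutant. WRKY55 (AT2G40740), the neighbour of WRKY54, had log2FC values of -3.29, 2.86 and -3.08 per the authors' deposited tables, and adjusted p-values between 0.489 and 0.833.

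All calls among group IIb and IIc genes were rises in brm or falls in the double mutant. WRKY6 (AT1G62300), a senescence gene that also represses the phosphate exporter gene PHO1, was estimated at 4.86 CPM in WT and 14.0 in brm, and at 4.76 in WT and 2.89 in the double mutant from the authors' deposited tables. Its log2FC in brm was 1.53, with an adjusted p of 7.1e-09, per the authors' deposited table. In arp6 and the double mutant it had -0.85 and -0.72 per the authors' deposited tables, at adjusted p-values of 0.0963 and 0.054. WRKY47 (AT4G01720) had the same signs, with log2FC values of -0.83, 1.35 and -0.53 in arp6, brm and the double mutant and a call only in brm (adjusted p 0.000115) per the authors' deposited tables. WRKY42 (AT4G04450), which regulates phosphate transport, fell in the double mutant, with a log2FC of -2.59 and an adjusted p of 0.0325 at an average log2 CPM of -1.28 per the authors' deposited table. In arp6 and brm WRKY42 had 0.15 and -1.39 per the authors' deposited tables, neither called. WRKY31 and WRKY61 had log2FC values of -4.65 and -5.91 in arp6 and of -4.44 and -5.69 in the double mutant per the authors' deposited tables, and none of these was called. Their average log2 CPM was -3.59 and -2.84 in arp6 and -3.53 and -2.81 in the double mutant, near the floor. In brm they had -0.41 and -0.14 per the authors' deposited table, at average log2 CPM values of -3.24 and -2.27.

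In group IIc, WRKY48 (AT5G49520), a repressor of basal defence against bacteria, was called in opposite directions in brm and the double mutant. It was estimated at 4.15 CPM in WT and 4.97 in arp6, at 3.84 in WT and 13.7 in brm, and at 3.81 in WT and 1.25 in the double mutant from the authors' deposited tables. The log2FC values were 1.83 in brm and -1.61 in the double mutant per the authors' deposited tables, at adjusted p-values of 8.7e-06 and 0.00172. WRKY50 (AT5G26170), which with WRKY51 represses jasmonate signalling when fatty acid desaturation is low, rose in brm with a log2FC of 5.67 and an adjusted p of 0.00105 per the authors' deposited table. Its average log2 CPM there was -0.90, and the estimated WT level of 0.021 CPM is near 0, so the size of this rise depends on the authors' prior count. In arp6 and the double mutant WRKY50 had log2FC values of 2.05 and 3.11 per the authors' deposited tables, neither called. WRKY8 (AT5G46350), known from defence against viruses, fell in the double mutant with a log2FC of -2.88 and an adjusted p of 0.0495 per the authors' deposited table, just under the threshold. Its average log2 CPM there was low, at -1.70.

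The phosphate uptake genes WRKY75 (AT5G13080) and WRKY45 (AT3G01970) were not called. WRKY75 had log2FC values of -6.51 in arp6 and -6.29 in the double mutant per the authors' deposited tables, with unadjusted p-values of 0.0352 and 0.0334 and adjusted ones of 0.251 and 0.154. In brm it had -1.32 per the authors' deposited table. The average log2 CPM of WRKY75 was -2.38 in arp6 and -2.36 in the double mutant, so the size of these falls depends on the authors' prior count. WRKY45 had 0.56, -1.55 and 0.03 in arp6, brm and the double mutant per the authors' deposited tables. WRKY28, an activator of the salicylic acid synthesis gene ICS1, had -0.79, 2.25 and 0.34 per the authors' deposited tables, and its adjusted p-values lay between 0.418 and 0.941. WRKY51 had 1.37, 1.16 and -0.41 per the authors' deposited tables, with no adjusted p below 0.813.

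Group IId proteins bind calmodulin. In this group 3 of 6 genes rose in brm, and in arp6 and the double mutant 0 of 6 were called by edgeR, with 2 and 0 at an unadjusted p under 0.05. Over all genes 13.8% were called in brm, 6.03% in arp6 and 13.3% in the double mutant, so with 6 genes a count of 0 does not stand apart from the background. WRKY15 (AT2G23320), WRKY39 (AT3G04670) and WRKY21 (AT2G30590) rose by 1.19, 0.94 and 0.75 on the log2 scale in brm per the authors' deposited table, with adjusted p-values of 2.84e-05, 0.000894 and 0.0059. WRKY15 was estimated at 4.77 CPM in WT and 10.9 in brm, against 4.66 in WT and 3.45 in the double mutant, from the authors' deposited tables. WRKY11 (AT4G31550) and WRKY17 (AT2G24570), which together restrain basal resistance, were not called. WRKY11 had log2FC values of 0.40, -0.47 and -0.34 in arp6, brm and the double mutant and WRKY17 had -0.12, 0.21 and 0.11 per the authors' deposited tables. WRKY7 had 0.53, 0.50 and -0.18 per the authors' deposited tables.

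In group IIe, WRKY22 and WRKY29 are known from signalling downstream of the flagellin receptor. WRKY22 (AT4G01250) fell in the double mutant, from an estimated 8.90 CPM in WT to 2.996, with a log2FC of -1.57 and an adjusted p of 7.22e-05 per the authors' deposited table. In arp6 and brm it had 0.41 and -0.45 per the authors' deposited tables, neither called. WRKY29 (AT4G23550) had -0.15, 1.45 and 0.64 in arp6, brm and the double mutant per the authors' deposited tables, and its adjusted p in brm was 0.0639. WRKY27, known from the response to bacterial wilt, had a log2FC of -1.01 in the double mutant with an adjusted p of 0.0824 per the authors' deposited table. WRKY65 and WRKY69 had log2FC values between -0.67 and 0.80 per the authors' deposited tables.

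**Figure D4:**
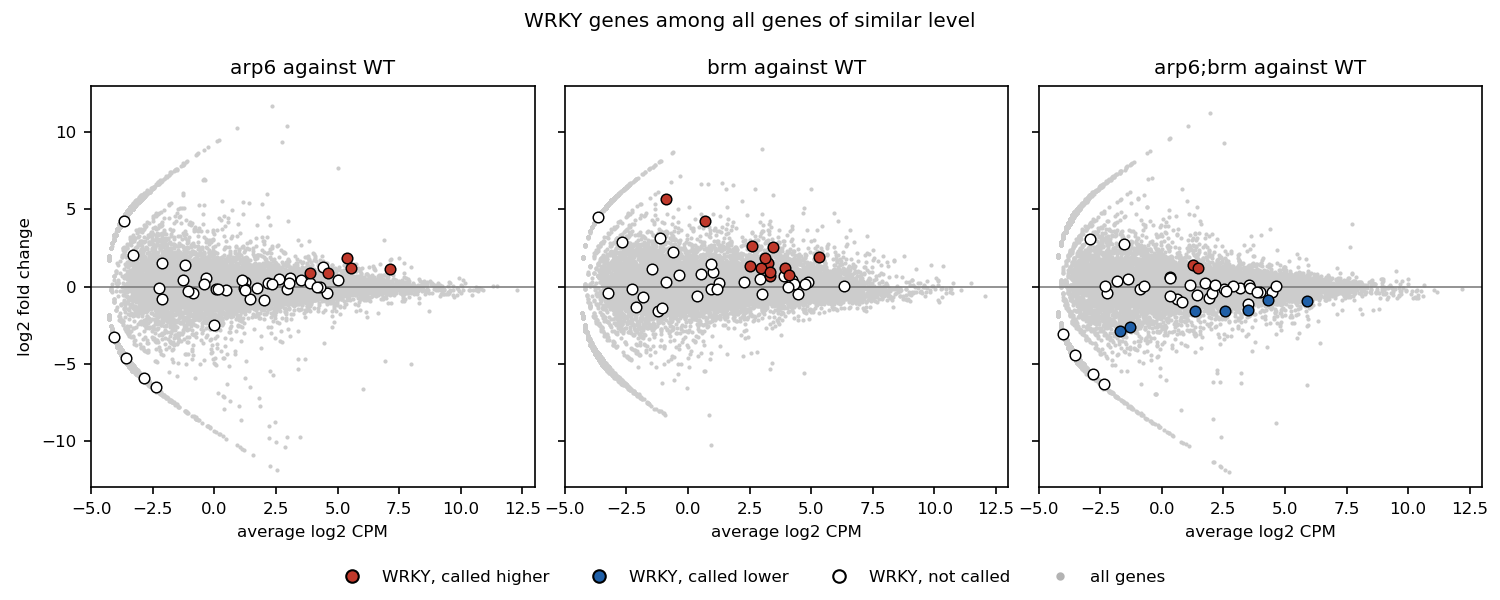
Log2 fold change (y axis) against average log2 CPM (x axis) for all genes (grey) and WRKY genes (circles) in the 3 comparisons, with red for called higher, blue for called lower and white for not called. The called WRKY genes in arp6 lie at an average log2 CPM between 3.86 and 7.11, and WRKY31, WRKY55, WRKY61 and WRKY75, not called, have log2FC values between -6.51 and -3.08 in arp6 and the double mutant at low average log2 CPM.

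Directions were then compared between mutants, with the limit that all 3 comparisons share the WT libraries. Of 44 WRKY genes listed in both tables, 23 had the same sign in arp6 and brm (52.3%), where 56.7% of all genes did. Between arp6 and the double mutant it was 19 of 43 (44.2%), against 63.7% of all genes. Between brm and the double mutant it was 24 of 43 (55.8%), against 61.8%. At an average log2 CPM of at least 1 in both tables, the share with the same sign was 62.5% between arp6 and brm, 30.4% between arp6 and the double mutant and 45.8% between brm and the double mutant, against 55.2%, 60.8% and 60.7% of all genes. At that level 12 of 23 WRKY genes (52.2%) were positive in arp6 and negative in the double mutant, against 19.5% of all genes. Likewise 13 of 24 (54.2%) were positive in brm and negative in the double mutant, against 19.6%, and 0 of 24 were negative in brm and positive in the double mutant, against 19.7%. WRKY18 and WRKY53 were called in both single mutants, both times higher.

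Of 16 WRKY genes called higher in a single mutant, 4 were called lower in the double mutant, namely WRKY18, WRKY33, WRKY48 and WRKY70. Among all 2142 genes called higher in a single mutant, 8.36% were called lower in the double mutant. The log2FC in the double mutant was below that of the single mutant in which the gene had been called for all 16 WRKY genes, but also for 92.4% of all such genes, so this count is near the background. It was below both single mutants for 9 of the 16, against 43.8% of all such genes. The double mutant was compared with WT only, and its difference from either single mutant was not tested. Among 44 members, 9 were called only in brm, 4 only in the double mutant and 1, WRKY40, only in arp6, while 24 were called in none. As shares these were 20.5%, 9.09%, 2.27% and 54.5% of the members, against 8.71%, 7.26%, 2.16% and 75.5% of the 23044 genes, so the counts for the double mutant and arp6 were near the background. Being called in one comparison and not in another does not show that the effects differ.

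WRKY proteins are activated by kinases and bound by partner proteins, and a list of 11 such genes was examined alongside. Of the 11, 1 was called in arp6, higher, which is near the 6.03% of all genes called. In brm 4 of 11 were called, all higher, against 13.8% of all genes called. In the double mutant 3 were called higher and 2 lower, against 13.3% of all genes called. The median log2FC over the list was 0.22, 0.63 and 0.39 in arp6, brm and the double mutant per the authors' deposited tables. MPK3, which phosphorylates WRKY33, had log2FC values of 1.23, 0.52 and -0.73 in arp6, brm and the double mutant per the authors' deposited tables, and was called higher in arp6 (adjusted p 2.13e-05) and lower in the double mutant (adjusted p 0.0148). MPK6 rose in brm by 0.71 on the log2 scale per the authors' deposited table, with an adjusted p of 0.0146. MKK1 and MKK2, kinases above MPK4, rose in brm by 2.11 and 0.94 on the log2 scale per the authors' deposited table. MPK4 itself fell in the double mutant by 0.78 on the log2 scale per the authors' deposited table, and MKK5 rose there by 0.68. SIB1 and SIB2, partners that enhance DNA binding by WRKY33, rose in the double mutant by 1.22 and 0.93 on the log2 scale per the authors' deposited table, where WRKY33 fell. SIB2 rose in brm as well, by 1.26 on the log2 scale per the authors' deposited table, and had 0.23 in arp6, not called. SIB1 had log2FC values of 1.22 in arp6 and 1.04 in brm per the authors' deposited tables. Neither was called, at adjusted p-values of 0.0656 and 0.105 from edgeR, so its value in arp6 matched that in the double mutant.

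Of 11 genes of immune signalling and defence output, some of them known WRKY targets, 8 rose in brm, where 7.62% of all genes were called higher. In arp6 2 of the 11 rose, against 3.01% of all genes, and in the double mutant 3 rose, against 6.16%, and none was called lower in any comparison. The list's median log2FC was 0.60, 1.88 and 0.12 in the same order per the authors' deposited tables. The camalexin synthesis genes CYP71A13 and CYP71A12 rose in brm, with log2FC values of 6.67 and 2.70 per the authors' deposited table, whereas PAD3, the last enzyme of that pathway, had 1.94 and was not called (adjusted p 0.161). CYP71A13 also rose in the double mutant, with a log2FC of 4.00 and an adjusted p of 0.0227 per the authors' deposited table. Its average log2 CPM there was low, at -1.92. The estimated WT level of CYP71A13 was 0.028 CPM against brm and 0.031 against the double mutant. With WT near 0, the size of both rises depends on the authors' prior count. The salicylic acid marker PR2 rose in all 3 mutants, with log2FC values of 2.20, 2.17 and 3.27 per the authors' deposited tables, and PR5 rose in brm and the double mutant, with 1.88 and 1.53. PR1 rose in brm, with a log2FC of 3.36 and an adjusted p of 0.0262 per the authors' deposited table. In arp6 and the double mutant PR1 had 1.38 and 2.67, not called, at adjusted p-values of 0.721 and 0.0735 from edgeR. EDS1, a regulator of salicylic acid signalling, rose in arp6 and brm by 0.98 and 1.01 on the log2 scale per the authors' deposited tables, and PAD4 and NPR1 rose in brm by 0.99 and 0.98. In the double mutant, EDS1, PAD4 and NPR1 had log2FC values of 0.15, -0.09 and 0.12 per the authors' deposited table, none called. ICS1 and FRK1 were not called in any comparison. Of the 11 genes, 3 had a log2FC below 0 in arp6, 1 in brm and 5 in the double mutant, none called. FRK1, PAD3 and CYP71A12 had -3.07, -2.33 and -0.83 in arp6 and -0.66, -1.07 and -1.48 in the double mutant per the authors' deposited tables. ICS1 had 0.44, -0.47 and -0.20 in arp6, brm and the double mutant.

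Of 5 genes of senescence and epidermal fate, SAG12 and TT12 were not listed. SAG13, a senescence gene, fell in arp6, with a log2FC of -4.80 and an adjusted p of 0.00837 per the authors' deposited table. In brm and the double mutant SAG13 had -1.99 and -2.62, not called, at adjusted p-values of 0.298 and 0.0924 from edgeR. GL2, a target of WRKY44 in trichomes, fell in arp6 with a log2FC of -1.09 and rose in the double mutant with 0.79 per the authors' deposited tables, at adjusted p-values of 0.00412 and 0.00176. TTG1 was not called. Of the 3 listed genes, 2 were thus called lower in arp6, 1 higher in the double mutant and 0 by edgeR in brm, where GL2 alone had an unadjusted p under 0.05, against 3.02% of all genes lower in arp6, 6.16% higher in the double mutant and 13.8% called in brm.

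The genes next to the members were read to see whether changes extended beyond the WRKY gene. Neighbours were the adjacent protein-coding genes in RefSeq's order. In arp6, 0 of the 9 listed neighbours of called WRKY genes were called by edgeR, with 1 at an unadjusted p under 0.05, where 6.03% of all genes were called. In brm, 2 of 23 were called, against 13.8% of all genes, both lower where the WRKY gene was higher. One of them, AT4G31805, next to WRKY18, had a log2FC of -8.34 and an adjusted p of 3.71e-18 per the authors' deposited table of brm, and -1.33 with an adjusted p of 0.00368 in that of the double mutant. In the double mutant, 4 of 13 neighbours were called, all in the direction of the WRKY gene, against 3 of 57 neighbours of WRKY genes that were not called and 13.3% of all genes. They included AT2G38480 next to WRKY33, with a log2FC of -2.17, and AT5G49525 next to WRKY48, with -4.35 at an average log2 CPM of -1.31 per the authors' deposited table. RefSeq's models of WRKY33 and AT2G38480 overlap, and 9 of the 44 members overlap another protein-coding gene, among them WRKY4, WRKY40 and WRKY53. The strand setting of the authors' counting is not given in the sources used here, so reads from such pairs cannot be told apart.

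Of the 28 other WRKY genes of RefSeq, 20 were listed in each table, with a median average log2 CPM between -1.40 and -0.83 per the authors' deposited tables. None was called in arp6 by edgeR, with 2 at an unadjusted p under 0.05. In brm 1 was called, WRKY23, and in the double mutant WRKY23 and WRKY57 were called, each time higher. These counts did not exceed the 6.03%, 13.8% and 13.3% of all genes called in arp6, brm and the double mutant, but most of the 20 lay at low level. At an average log2 CPM of 1 or more, 2 of 6 were called in the double mutant, both higher. There 17.3% of all genes were called, 7.83% higher. In brm it was 1 of 7 at that level, against 19.5% of all genes. The median log2FC of the 20 listed was -0.20 in arp6, 0.46 in brm and 0.28 in the double mutant per the authors' deposited tables. In the double mutant 11 of the 20 were positive, against 16 of the 43 listed members, whose median was -0.34. For the 6 at an average log2 CPM of 1 or more the median there was 0.33. The lean to negative values in the double mutant was thus not seen in these other WRKY genes. However, the members were listed with earlier results of these data known, so the contrast may partly follow from that choice. The sets also differ in level, with a median average log2 CPM there of 1.34 for the members and -1.10 for the others. The contrast therefore does not show a trait particular to the members. WRKY23, an auxin-responsive gene, had log2FC values of 1.32 in brm and 1.19 in the double mutant per the authors' deposited tables, at adjusted p-values of 0.00124 and 0.000664.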

How the data were processed

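RNA-seq libraries of nuclear RNA came from 4 groups of 3 libraries, grouped by sample title. The labels' design text calls them biological replicates. Per gene, the authors deposited a log2 fold change, an average log2 CPM, a p-value and its Benjamini-Hochberg adjustment, named as edgeR output per the labels. The submitters' processing notes also name TopHat2, HTSeq and build TAIR10, with no role or version. Recomputing the adjustment gave the deposited values. Each of the tables has 3 counter rows that name no gene, with 66.9%, 69.3% and 70.7% of the CPM in arp6, brm and the double mutant, and these rows were dropped before counting. Depth per library is unknown, because no counts were given, so no test was refitted.

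Calculations used Python 3.11.15, numpy 2.4.6, pandas 2.3.3, scipy 1.17.1 and matplotlib 3.10.9. The WT level was estimated as 2 times the average CPM divided by 1 plus the fold change. Only the Benjamini-Hochberg adjustment and this formula were run on simulated data. The simulated averages were built with the same formula, so its match to edgeR's average CPM was not tested. Symbols came from RefSeq (TAIR10.1), which matched all 44 members. The members and lists were chosen with earlier results of these data known. Genes named are members called in at least 1 table, those not listed, groups named for their role, and the extremes of each structural group. All other members are given by value or range. H2A.Z peaks, nucleosome positions and arp6 deletions were not used here, because the gene positions at hand are of another assembly version than the files and carry no strand. No sequences are shown.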

Additional observations from a re-analysis of the deposited data

How the results depend on the processing

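All 27 calls of WRKY genes held when p-values were adjusted without the rows that name no gene. At an adjusted p under 0.01, 19 of the 27 held, requiring a change of 1 or more on the log2 scale 20 did, and when limited to an average log2 CPM of 1 or more 23 did, without WRKY30 and WRKY50 in brm and WRKY8 and WRKY42 in the double mutant. At an adjusted p under 0.01 the number of WRKY genes called in the double mutant was 3 where it had been 9, and the related genes were 7 in brm where there had been 12, and 5 in the double mutant where there had been 9. WRKY33 and WRKY70 in the double mutant were among those lost. At an adjusted p under 0.2 there were 9 WRKY genes in arp6 and 17 in the double mutant, where there had been 5 and 9. Of those gained in arp6, WRKY11 was higher, and WRKY3, WRKY6 and WRKY44 were lower. Those gained in brm were WRKY29, higher, and WRKY11, lower. Calls in the single mutants were thus not all rises at this setting. All those gained in the double mutant were lower except WRKY62. When a change of 1 or more on the log2 scale was required, there were 3 WRKY genes in arp6, without WRKY40 and WRKY53, and 4 related genes in the double mutant. Among genes with an average log2 CPM of 1 or more, the share of WRKY genes with the same sign in arp6 and the double mutant was 30.4% where it had been 44.2%. The members' median log2 fold changes at that level were 0.26 in arp6, 0.66 in brm and -0.31 in the double mutant. Over all listed members they had been 0.16, 0.67 and -0.34. The limit on average log2 CPM changed which genes were counted as well as how many, and the reason for each difference was not tested. Alternatives for the related genes were chosen after seeing the data. No paired analysis was possible because the tables carry no value per library, and leaving out single libraries was not possible for the same reason. The planned counts of H2A.Z peaks, nucleosome changes and arp6 deletions at WRKY genes were not run.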
